A study of Mus musculus with 6 samples.

Results

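Fc gamma receptors are the receptors through which macrophages and their descendants recognise the constant part of IgG antibodies. The 5 genes described here are *Fcgr1*, *Fcgr2b*, *Fcgr3*, *Fcgr4* and *Fcgrt*, chosen by their gene names among the 57180 genes of the deposited table. Mouse osteoclast precursors (OCPs) were sequenced as RNA libraries, 3 of WT and 3 of *lincRNA-EPS* knockout (KO) cells, with 1 library per culture and 3 biologically independent replicates per genotype according to the submitters. The labels give the cells as bone marrow-derived macrophages. *LincRNA-EPS* is a long non-coding RNA, and the KO cells come from the study's *lincRNA-EPS*-/- mice, with C57BL/6 named as the strain for its animal model. How the deletion was made is not given in the sources used here. The age of the marrow donors and whether cultures were pooled from several mice are not given in the sources used here. Both genotypes received the same treatment, with the macrophage growth factor M-CSF at 40 ng/ml alone for 24 h. RANKL, the osteoclast-inducing cytokine, was then given at 40 ng/ml for 48 h, and the study's methods name both factors in the medium. No culture without RANKL was compared, so the values describe 2 genotypes at 1 time point.

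An activating receptor binds antibody outside the cell and passes the signal through the shared gamma chain, encoded by *Fcer1g*, whose ITAM motifs are phosphorylated by Src family kinases and then recruit the kinase Syk. *Fcgr1* encodes the high affinity receptor CD64, and *Fcgr3* and *Fcgr4* encode receptors of lower and intermediate affinity, all of this activating kind. *Fcgr2b* encodes the inhibitory receptor, which carries an ITIM in its own tail and recruits the lipid phosphatase encoded by *Inpp5d*. *Fcgrt* encodes the heavy chain of the neonatal Fc receptor FcRn, which pairs with the *B2m* light chain inside the cell and recycles IgG rather than starting phagocytosis. In the osteoclast lineage, ITAM signals from *Fcer1g* and *Tyrobp* act beside RANKL in differentiation, and *Fcgr1* is a textbook target of interferon.

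The largest difference between genotypes in the family was in *Fcgr1*, whose level was 35.7% lower in KO, with every KO library below every WT library. *Fcgr2b*, *Fcgr3*, *Fcgr4* and *Fcgrt* had overlapping libraries, with fitted differences of 2.94% to 15.6%. None of the 5 genes passed the limits set for a call in edgeR's quasi-likelihood test, and *Fcgr1* alone passed them in DESeq2. The ratio of summed activating to inhibitory counts, most of them *Fcgr3*, differed by -0.0005 on the log2 scale, or by -0.20 with the activating genes weighted equally, and both values moved with a correction for GC content, while the share of *Fcgr1* within the family differed.

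*Fcgr2b*, *Fcgr4* and *Fcgr3* are neighbours, in this order, within 106.3 kb of chromosome 1, and the other 2 genes lie elsewhere. Positions are those of GENCODE release M21 on GRCm38, because the submitters' notes name GRCm39 for the counts and no annotation of that build was used here. *Fcgr1* (ENSMUSG00000015947) spans chr3:96282909-96293969 on the minus strand. *Fcgr2b* (ENSMUSG00000026656) spans chr1:170958617-170976547 on the minus strand, *Fcgr4* (ENSMUSG00000059089) spans chr1:171018920-171029761 on the plus strand, and *Fcgr3* (ENSMUSG00000059498) spans chr1:171051174-171064935 on the minus strand. *Fcgrt* (ENSMUSG00000003420) spans chr7:45092990-45103851 on the minus strand. All 5 are protein-coding genes.

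*Fcgr2b* and *Fcgr3* are near copies in the part that encodes the antibody-binding domains, which matters for how reads are divided between them. Their coding sequences were identical at 678 of 782 aligned bases, or 86.7%, and the other pairs among the 4 receptors on the cell surface were identical at 64.1% to 68.6%. The longest run shared exactly was 129 bases. It stands in capitals here, with 20 bases of each gene on either side in lower case. In *Fcgr2b* it covers coding bases 278 to 406 of ENSMUST00000159969, across the junction of exons 5 and 6, and lies within chr1:170966674-170968081 with the intron between them. In *Fcgr3* it covers coding bases 263 to 391 of ENSMUST00000164044, across the junction of exons 3 and 4, and lies within chr1:171054167-171057792. Both are written 5′ to 3′ along the transcript, from the minus strand of GRCm38.
Fcgr2b: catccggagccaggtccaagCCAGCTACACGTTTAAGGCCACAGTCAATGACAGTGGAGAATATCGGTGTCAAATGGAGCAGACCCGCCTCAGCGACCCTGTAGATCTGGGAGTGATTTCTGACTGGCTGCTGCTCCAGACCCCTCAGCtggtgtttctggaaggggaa
Fcgr3: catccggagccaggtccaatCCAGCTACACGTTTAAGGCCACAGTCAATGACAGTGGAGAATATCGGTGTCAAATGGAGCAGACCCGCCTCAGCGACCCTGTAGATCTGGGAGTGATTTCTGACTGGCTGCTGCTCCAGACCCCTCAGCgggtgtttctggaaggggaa

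Of the 50-base windows along the longest transcripts, 166 occurred in both *Fcgr2b* and *Fcgr3*, which is 4.75% of the windows of *Fcgr2b* and 12.8% of those of *Fcgr3*. At 100 bases 44 windows were shared and at 150 bases 0 were shared. No other pair among the 5 genes shared a window of 50 bases. The deposited estimated counts were not whole for *Fcgr2b* in 5 libraries and for *Fcgr3* in 3 libraries, and were whole in all 6 libraries for *Fcgr1*, *Fcgr4* and *Fcgrt*. Counts of *Fcgr2b* and *Fcgr3* are therefore less certain than those of the other 3 genes, to the extent that reads fell within shared sequence. The 129-base run does not hold all of the windows that were shared. *Fcgr2b* also shares 155 exonic bases with the antisense gene *Gm38204*, which had 1 count in KO replicate 3 and 0 counts in the other libraries.

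The start regions of *Fcgr1* and *Fcgr4* are shown because they held a match to an interferon element, and those of *Fcgr2b*, *Fcgr3* and *Fcgrt* held none. The windows searched are the 250 bases before the RefSeq start on GRCm38.p6, on both strands, and a window was found for all 5 genes. Capitals mark a GAS element, TTCNNNGAA, in *Fcgr1* and an ISRE core, GAAANNGAA, in *Fcgr4*, where GAS and ISRE are the sites bound by STAT and IRF factors. The 250 bases before the start of *Fcgr1* are chr3:96293970-96294219 on the minus strand, and its match TTCCCAGAA is at chr3:96294070-96294078, beginning 109 bases before the start. The 250 bases before the start of *Fcgr4* are chr1:171018676-171018925 on the plus strand, and its match GAAAAGGAA is at chr1:171018853-171018861, beginning 73 bases before the start. Both sequences run 5′ to 3′ on the strand of the gene.
Fcgr1: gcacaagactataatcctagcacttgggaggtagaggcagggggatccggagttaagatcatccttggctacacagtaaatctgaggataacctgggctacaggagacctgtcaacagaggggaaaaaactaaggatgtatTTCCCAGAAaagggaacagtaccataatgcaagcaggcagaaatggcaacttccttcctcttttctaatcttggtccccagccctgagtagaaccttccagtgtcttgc
Fcgr4: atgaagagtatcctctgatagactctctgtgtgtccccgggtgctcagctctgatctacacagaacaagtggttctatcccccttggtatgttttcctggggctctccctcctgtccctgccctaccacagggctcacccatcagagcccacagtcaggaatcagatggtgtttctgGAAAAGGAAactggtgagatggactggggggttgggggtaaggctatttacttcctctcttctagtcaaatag

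Among 27025 genes with such a window, 7.18% held the GAS letters and 7.16% held the ISRE core, so a single match is a common finding. The box GAGGAA of the macrophage factor PU.1, which 23.1% of the windows held, was present in *Fcgr1*, *Fcgr3* and *Fcgr4* as its reverse complement TTCCTC, beginning 55, 6 and 22 bases before the start. The AP-1 letters TGANTCA, present in 6.87% of windows, were found in none of the 5. These matches describe letters only, and binding was not measured.

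The libraries held 17757351 to 19998611 estimated counts in total. The knockout was read first, since it checks the labels. *LincRNA-EPS*, listed as *Ttc39aos1*, was at 20, 37 and 41 counts in replicates 1, 2 and 3 of WT and was at 0 in the 3 KO libraries. Among fixed marker lists, the summed level of 10 macrophage markers, as normalized counts (CPM) scaled by edgeR's TMM method, was 17180 to 18230 in WT and 15420 to 18090 in KO, with *Lyz2* making up 76.3% of the sum, and none of the 10 was at 0. The fitted level of all 10 was lower in KO, against 49% of all genes, and 6 of them had an unadjusted p under 0.05 (edgeR), against 13.2%. After a correction for GC content 8 of the 10 were lower, and *Spi1*, named after its values were seen, was higher with an unadjusted p under 0.05. The summed level of 10 osteoclast markers was 5105 to 5523 CPM in WT and 6841 to 7269 CPM in KO, and 9 of the 10 were higher. Neutrophil markers summed to 1324 to 1485 CPM in WT and 1750 to 2075 CPM in KO, with 8 of the 11 tested higher and 3 lower, and monocyte markers to 390.9 to 435.7 CPM in WT and 473.7 to 565.4 CPM in KO. B cell markers summed to 27.8 to 32.4 CPM in WT and 33.6 to 37.9 CPM in KO, and dendritic cell markers to 14.0 to 18.4 CPM and 19.1 to 22.0 CPM. Mast cell and basophil markers were at 7.44 to 8.48 CPM in WT and 9.32 to 11.9 CPM in KO with *Mcpt4*, *Tpsb2* and *Cma1* at 0. NK and T cell markers were at 1.05 to 1.81 CPM in WT and 0.260 to 1.55 CPM in KO with *Gzma* at 0, and stromal markers were at 19.8 to 28.7 CPM and 17.1 to 22.5 CPM. The part of these shifts in the receptor values was not tested, and in bulk RNA fewer cells that express a gene and less of its RNA per cell cannot be told apart. Transcripts of rRNA genes took 2.71% of the counts in KO replicate 2 and 0.202% to 0.576% in the others, and mitochondrial genes took 1.00% to 1.53% in WT and 1.78% to 3.32% in KO. Without these rows the log2 fold change of *Fcgr1* was -0.64, as with them.

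All 5 receptor genes passed the filter on low counts and were tested among 13428 genes. A call needed an adjusted p under 0.01, by the Benjamini-Hochberg method over all genes tested, together with a log2 fold change beyond 0.379 in size, that is 1.3-fold. Values per library are given in the order of replicates 1, 2 and 3. Fold changes are KO over WT throughout, and the error of a fold change is its standard error (SE) from edgeR.

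*Fcgr1*, the gene of CD64, was covered by 441, 367 and 393 counts in the WT libraries and by 224, 257 and 274 in the KO libraries. After scaling these were 22.1, 20.1 and 20.6 CPM in WT and 11.7, 14.8 and 14.0 CPM in KO. The highest KO library, replicate 2, stood below the lowest WT library, also replicate 2, and the groups did not overlap. The mean was 20.9 ± 1.05 CPM in WT and 13.5 ± 1.61 CPM in KO (n = 3 each, SD). The log2 fold change was -0.64 ± 0.13 (95% interval -0.93 to -0.35), and the adjusted p was 0.141 in edgeR's quasi-likelihood test. By its p, *Fcgr1* stood at rank 71 of the 13428 genes. DESeq2's Wald test gave the same log2 fold change of -0.64 with an adjusted p = 0.00479, which is past the limits.

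*Fcgr3*, the low affinity activating receptor, was the most abundant of the family in counts, with 166.7, 166.3 and 178.7 CPM in WT and 148.4, 159.7 and 188.6 CPM in KO. The KO libraries spanned the WT libraries, with replicate 3 above all of WT and replicates 1 and 2 below. The mean was 170.6 ± 7.03 CPM in WT and 165.6 ± 20.7 CPM in KO (n = 3 each, SD). The log2 fold change of *Fcgr3* was -0.04 ± 0.11 (95% interval -0.29 to 0.20), with an adjusted p = 0.817 from edgeR. A change of 1.3-fold in either direction lies outside this interval.

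*Fcgr4*, the activating receptor next to *Fcgr3*, had 17.8, 15.3 and 19.4 CPM in WT and 13.2, 15.4 and 15.6 CPM in KO. KO replicates 2 and 3 lay above the lowest WT library, so the groups overlapped, and KO replicate 1 was the lowest of the 6. The mean of *Fcgr4* was 17.5 ± 2.09 CPM in WT and 14.8 ± 1.33 CPM in KO (n = 3 each, SD). Its log2 fold change of -0.24 ± 0.14 had a 95% interval of -0.55 to 0.06 and an adjusted p = 0.264 from edgeR. At 254 to 370 counts a library, the interval includes a 1.3-fold decrease and ends short of the -0.64 of *Fcgr1*.

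*Fcgr2b*, the inhibitory receptor, had 66.2, 64.8 and 65.5 CPM in WT and 55.9, 61.1 and 64.9 CPM in KO. KO replicates 1 and 2 lay below all WT libraries, while KO replicate 3, at 1274 counts, lay within them by a small margin. The mean was 65.5 ± 0.695 CPM in WT and 60.6 ± 4.49 CPM in KO (n = 3 each, SD). Spread was thus larger among the KO libraries for *Fcgr2b* and for *Fcgr3*, with KO replicate 1 lowest and KO replicate 3 highest in both. The log2 fold change of *Fcgr2b* was -0.11 ± 0.09 (95% interval -0.33 to 0.10), with an adjusted p = 0.456 from edgeR.

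*Fcgrt*, the FcRn heavy chain, was the least abundant, at 123, 135 and 97 counts in the WT libraries and 127, 106 and 105 in the KO libraries. The scaled levels were 6.17, 7.39 and 5.09 CPM in WT and 6.61, 6.09 and 5.35 CPM in KO, and the KO libraries lay inside the WT range. The mean was 6.22 ± 1.15 CPM in WT and 6.02 ± 0.637 CPM in KO (n = 3 each, SD). Its log2 fold change was -0.05 ± 0.18 (95% interval -0.45 to 0.36, adjusted p = 0.880 from edgeR). At this depth the interval of *Fcgrt* includes a 1.3-fold decrease and ends just short of a 1.3-fold increase.

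**Figure D1:**
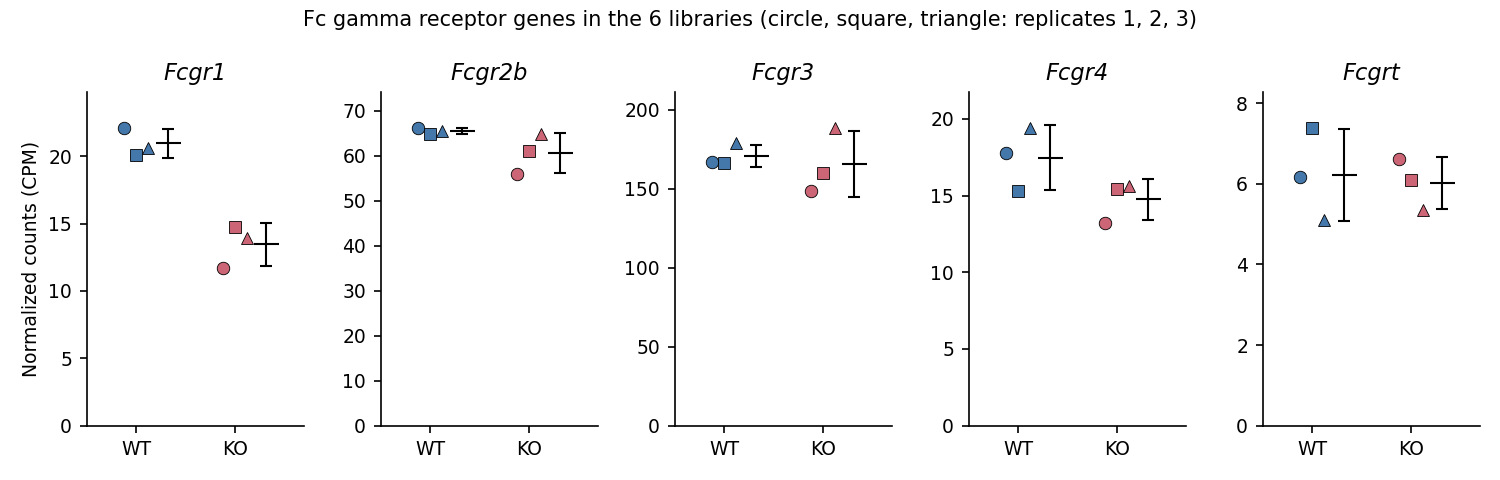
Normalized counts (CPM after TMM scaling) of *Fcgr1*, *Fcgr2b*, *Fcgr3*, *Fcgr4* and *Fcgrt* in 3 WT (blue) and 3 KO (red) libraries, each panel with its own axis from 0; the horizontal mark and bar are the mean and SD. The KO points of *Fcgr1* lie at 11.7 to 14.8 CPM, all below the WT points at 20.1 to 22.1 CPM, and in the other panels the genotypes overlap.

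Of the 5 genes, 0 were called in edgeR, where 0.00745% of all genes tested were called. At an unadjusted p under 0.05, 1 of the 5 was lower in KO (*Fcgr1*) against 13.2% of all genes, and 0 were higher against 13% of all genes. *Fcgr1* was also the 1 gene of the 5 whose WT libraries all lay above its KO libraries, a pattern found in 18.8% of all genes tested. In DESeq2, 1 of the 5 was called lower (*Fcgr1*) where 0.695% of all genes tested were. The median log2 fold change of the 5 genes was -0.11, and that of all genes tested was 0.01.

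The log2 fold change of genes fell with the GC content of their transcripts (r = -0.51 across 13176 genes, which are not independent replicates), so values were also computed with each library corrected for GC content. *Fcgr1*, at 51.6% GC, had a log2 fold change of -0.56 after the correction (95% interval -0.83 to -0.29), with an adjusted p = 0.0618 from edgeR and 0.00459 from DESeq2. *Fcgr2b* has the lowest GC content of the family at 45.4%, and its log2 fold change was -0.23 after the correction (95% interval -0.38 to -0.08, adjusted p = 0.0927 from edgeR). For *Fcgr4*, at 48.2% GC, it was -0.27 (-0.53 to -0.02, adjusted p = 0.173). *Fcgr3*, at 49.2% GC, stayed at -0.04, and *Fcgrt*, the richest in GC at 55.9%, turned from -0.05 to 0.18 (-0.13 to 0.49, adjusted p = 0.438). With the correction, 3 of the 5 genes (*Fcgr1*, *Fcgr2b* and *Fcgr4*) were lower at an unadjusted p under 0.05 in edgeR, against 13% of all genes, and 0 were called. DESeq2 with the correction called 1 of the 5 lower (*Fcgr1*) where 1.31% of all genes tested were.

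**Figure D2:**
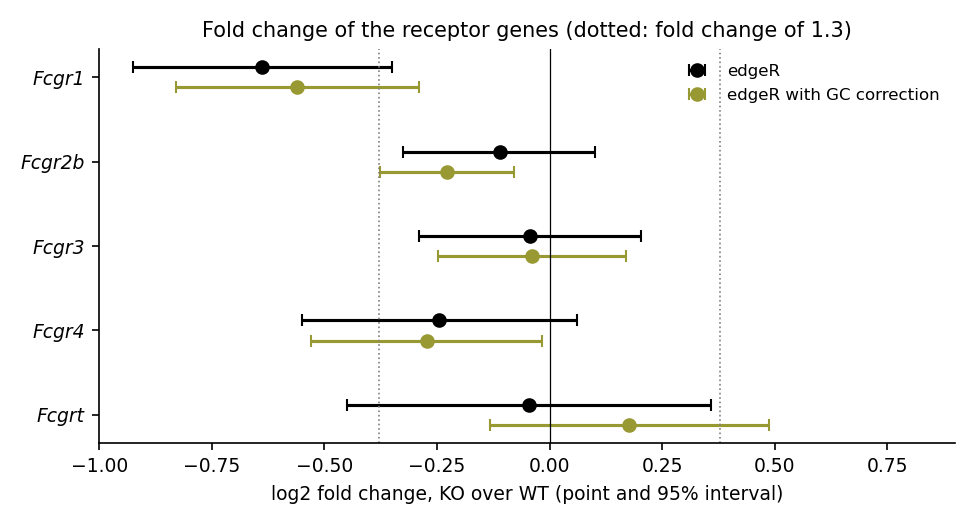
Log2 fold change of KO over WT with its 95% interval for the 5 receptor genes, from edgeR without (black) and with (olive) the correction for GC content; dotted lines mark a fold change of 1.3. The intervals of *Fcgr1* lie wholly below 0 in both fits, those of *Fcgr2b* and *Fcgr4* only after the correction, and *Fcgrt* changes sign.

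Levels of different genes were compared per length, as CPM per kb of the longest transcript of each gene. *Fcgr3* was highest at 126.6 ± 5.22 CPM per kb in WT and 122.9 ± 15.4 in KO (n = 3 each, SD). *Fcgr2b* followed with 18.5 ± 0.196 and 17.1 ± 1.27 CPM per kb, and *Fcgr4* with 13.9 ± 1.66 and 11.7 ± 1.06. *Fcgr1* was at 8.09 ± 0.406 CPM per kb in WT and 5.20 ± 0.623 in KO, and *Fcgrt* was lowest at 3.51 ± 0.650 and 3.40 ± 0.360. Ranges over the 6 libraries did not overlap between neighbours in this order, and the closest were *Fcgr2b*, at 15.8 CPM per kb or more, and *Fcgr4*, at 15.5 or less, followed by *Fcgr1*, at 4.51 or more, and *Fcgrt*, at 4.18 or less. The places of *Fcgr2b* and *Fcgr4* depend on the length used. Over the union of all exons *Fcgr2b* was at 11.3 ± 0.120 CPM per kb in WT and 10.5 ± 0.775 in KO, below *Fcgr4* in both means, with overlapping ranges.

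**Figure D3:**
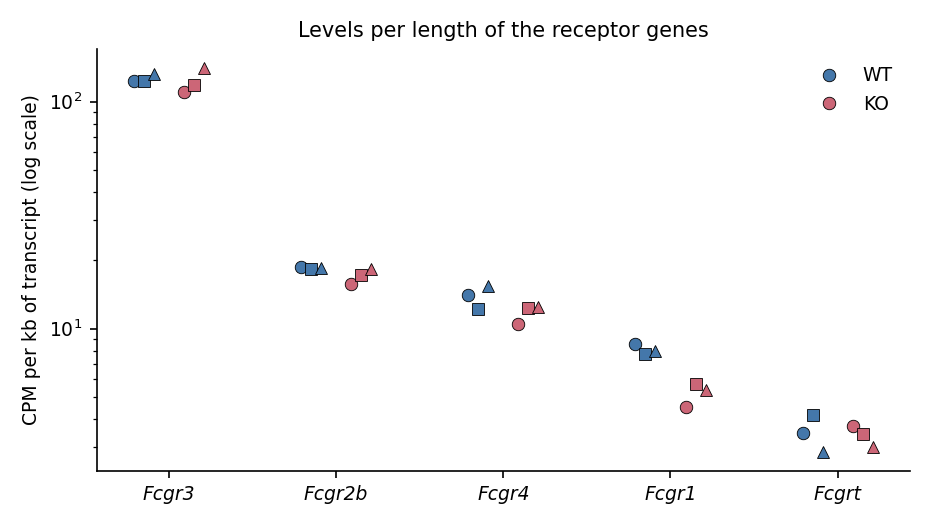
Level of each receptor gene in CPM per kb of its longest transcript, on a log scale, in 3 WT (blue) and 3 KO (red) libraries, with genes in order of their WT mean. *Fcgr3* stands at 110.2 to 140.0 CPM per kb, far above *Fcgr2b* at 15.8 to 18.7, and *Fcgr1* in KO moves towards *Fcgrt*.

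As shares of the summed per-length level of the 4 surface receptors, *Fcgr3* made up 75.8% ± 0.731 in WT and 78.2% ± 1.20 in KO, and *Fcgr2b* made up 11.1% ± 0.413 and 10.9% ± 0.469 (n = 3 each, SD). *Fcgr4* made up 8.31% ± 0.701 in WT and 7.50% ± 0.457 in KO. The share of *Fcgr1* was 4.84% ± 0.307 in WT, from 4.56% to 5.17%, and 3.32% ± 0.344 in KO, from 3.06% to 3.71%. The *Fcgr1* shares of the genotypes did not overlap, nor did those of *Fcgr3*, at 74.96% to 76.37% in WT and 77.1% to 79.5% in KO. The shares of *Fcgr2b* and *Fcgr4* overlapped. A share also moves with those of the other genes, and the CPM of *Fcgr3* itself overlapped between genotypes (log2 fold change -0.04).

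Ratios between receptor genes within a library do not depend on how libraries are scaled. The counts of the activating genes *Fcgr1*, *Fcgr3* and *Fcgr4* summed to 3.12, 3.11 and 3.34 times the count of the inhibitory *Fcgr2b* in WT and to 3.10, 3.11 and 3.36 times in KO. The libraries of both genotypes thus covered the same range. On the log2 scale the mean was 1.67 ± 0.057 in WT and 1.67 ± 0.067 in KO (n = 3 each, SD), a difference of -0.0005 with p = 1 in a two-sided exact permutation test. *Fcgr3* supplied 80.7% to 86.4% of the activating counts, so this ratio follows *Fcgr3* and says little of *Fcgr1*. With the 3 activating genes given equal weight, as the mean of their log2 ratios to *Fcgr2b*, the difference was -0.20. After the GC correction, added to the ratios once the data were seen, the summed ratio differed by 0.13 and the equal-weight mean by -0.06. The log2 ratio of *Fcgr3* to *Fcgr2b*, the near copies, was 1.38 ± 0.060 in WT and 1.45 ± 0.083 in KO (difference 0.065, exact permutation p = 0.4). That difference was 0.19 after the GC correction, 0.017 without KO replicate 3 and 0.098 without WT replicate 3.

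The ratios that involve *Fcgr1* or *Fcgr4* were chosen after the values were seen. *Fcgr1* had 0.133, 0.121 and 0.115 counts for each count of *Fcgr3* in WT and 0.0786, 0.0925 and 0.0740 in KO. All KO values lay below all WT values, and the mean log2 ratio was -3.03 ± 0.102 in WT and -3.62 ± 0.167 in KO (n = 3 each, SD), a difference of -0.59. Against *Fcgr2b*, *Fcgr1* had 0.334, 0.310 and 0.315 counts per count in WT and 0.209, 0.242 and 0.215 in KO, a log2 difference of -0.53. After the GC correction the differences were -0.52 against *Fcgr3* and -0.33 against *Fcgr2b*. The exact permutation test gave p = 0.1 for each of the uncorrected ratios of *Fcgr1*, which is the smallest that 3 libraries against 3 allow, and 0.25 after Benjamini-Hochberg adjustment over the 5 ratios computed. *Fcgr4* to *Fcgr2b* differed by -0.13 on the log2 scale with overlapping libraries (exact permutation p = 0.4), or by -0.05 after the GC correction.

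**Figure D4:**
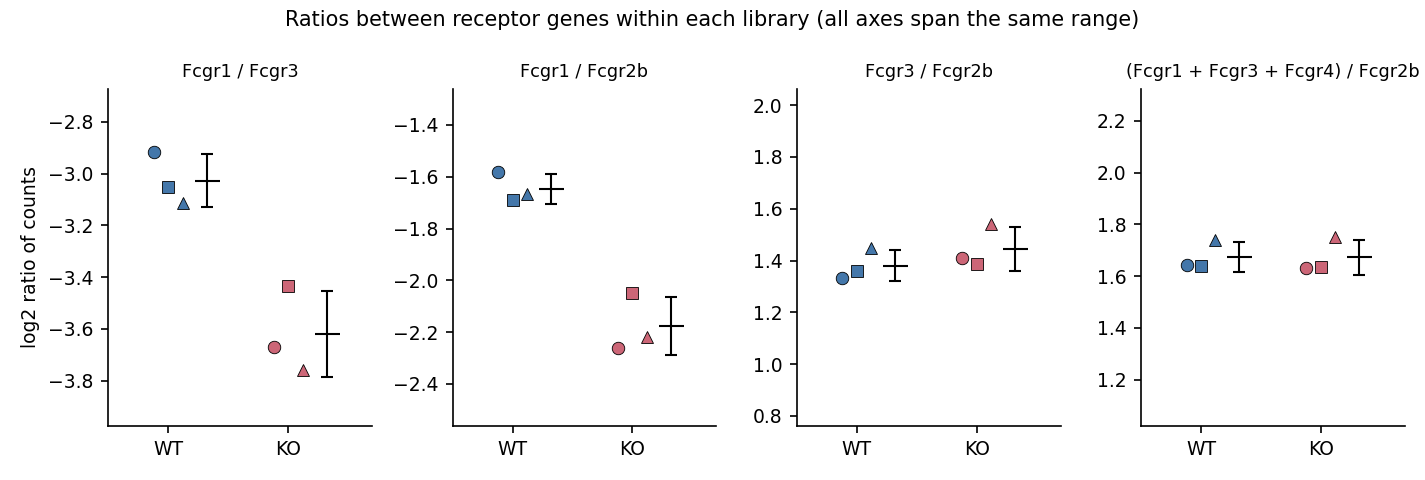
Log2 ratio of counts between receptor genes within each of 3 WT (blue) and 3 KO (red) libraries, with mean and SD beside the points; circle, square and triangle are replicates 1, 2 and 3, and all axes span the same range. The KO points of *Fcgr1* to *Fcgr3* and of *Fcgr1* to *Fcgr2b* lie below all WT points, and the points of *Fcgr3* to *Fcgr2b* and of the summed activating genes to *Fcgr2b* overlap.

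Across the 6 libraries, *Fcgr1*, *Fcgr2b* and *Fcgr4* varied together in log2 CPM, with r = 0.82 between *Fcgr1* and *Fcgr2b*, 0.81 between *Fcgr1* and *Fcgr4* and 0.81 between *Fcgr2b* and *Fcgr4*. *Fcgr3* had r = 0.79 with *Fcgr2b* and 0.36 with *Fcgr1*, and *Fcgrt* had negative r with each of the other 4, from -0.67 to -0.03. The 6 points share their libraries and their genotype groups, so these are descriptions with no test. By the same measure over 8867 other genes of at least 10 CPM, the profiles most like *Fcgr1* included those of *Ogfr* and *Slc9a9* (both r = 0.98). *Ogfr*, which encodes the opioid growth factor receptor, had 69.9, 69.2 and 70.4 CPM in WT and 51.8, 54.5 and 55.5 CPM in KO, without overlap. Its log2 fold change was -0.37 (adjusted p = 0.147 from edgeR). Most like *Fcgr2b* were *Tlr2*, a receptor for bacterial lipoproteins, *Epsti1* and *Fbh1* (r = 0.96 to 0.98). Those most like *Fcgr3* included *Rnf128* and *Tlr1* (r = 0.99 and 0.98), those most like *Fcgr4* included *Prdx6* and *Ifi27* (both r = 0.96), and most like *Fcgrt* were *Gpt2*, *Dmac2* and *2310061I04Rik* (r = 0.96 to 0.98).

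A list of receptor partner subunits was measured beside the receptors, and not all of its genes encode chains that these receptors need. *Fcer1g*, the gamma chain of the activating receptors, had 371.2, 270.2 and 372.8 CPM in WT and 376.3, 405.2 and 269.5 CPM in KO. Its lowest libraries were WT replicate 2 and KO replicate 3, the groups overlapped, and the log2 fold change was 0.05 ± 0.18 (adjusted p = 0.864 from edgeR). *B2m*, the light chain of FcRn, had 873.2 ± 142.1 CPM in WT and 882.8 ± 77.6 CPM in KO (n = 3 each, SD; log2 fold change 0.02). *Tyrobp*, the ITAM adaptor DAP12, had 351.3 ± 45.4 CPM in WT and 375.6 ± 11.1 CPM in KO (log2 fold change 0.10). Of the 6 partner genes tested, 0 had an unadjusted p under 0.05 in edgeR, against 13.2% of all genes lower and 13% higher. Their median log2 fold change was 0.03, or -0.14 after the GC correction. With 1 library left out this median was -0.10 (without WT replicate 2) to 0.14 (without WT replicate 3). The lowest of them was *Cd247*, named here after its values were seen, with a mean of 1.16 CPM in WT and 0.471 CPM in KO (log2 fold change -1.35).

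Downstream of the activating receptors, 29 signalling genes were tested and 0 were called in edgeR or in DESeq2, with a median log2 fold change of -0.17. At an unadjusted p under 0.05 in edgeR, 10 (34.5%) were lower and 1 (3.45%) was higher, against 13.2% and 13% of all genes tested. *Fgr*, a Src family kinase, had 87.1 ± 9.86 CPM in WT and 61.7 ± 5.41 CPM in KO (log2 fold change -0.50 ± 0.12). *Vav2*, an exchange factor for small GTPases, had 42.7 ± 4.30 and 29.8 ± 3.49 CPM (-0.52 ± 0.13). *Pik3cg*, a catalytic subunit of PI3 kinase, had 118.0 ± 5.30 and 93.6 ± 5.73 CPM (-0.34 ± 0.09), and the adaptor *Sh3bp2* had 185.2 ± 19.3 and 137.1 ± 16.4 CPM (-0.43 ± 0.12; n = 3 each, SD). These 4 were named as those of lowest p in the list. The WT libraries of each lay above all KO libraries, a pattern found in 18.8% of all genes tested. Each had an adjusted p = 0.147 from edgeR. After the GC correction *Vav2* was at -0.28 and *Sh3bp2* at -0.20, while *Fgr* was at -0.40 and *Pik3cg* at -0.43, and DESeq2 with the correction called the latter pair lower, out of 28 with an adjusted p and against 1.31% of all genes tested.

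On the inhibitory side, 14 genes were tested and 0 were called in edgeR or in DESeq2, with or without the GC correction, with a median log2 fold change of -0.22. At an unadjusted p under 0.05 in edgeR, 6 (42.9%) were lower and 1 (7.14%) was higher, where 13.2% and 13% of all genes were. *Inpp5d*, the phosphatase that *Fcgr2b* recruits, had 312.2 ± 41.3 CPM in WT and 242.7 ± 24.6 CPM in KO (log2 fold change -0.36 ± 0.12, adjusted p = 0.150 from edgeR). Its relative *Inppl1* had 98.8 ± 15.2 and 67.1 ± 13.6 CPM (-0.56 ± 0.16, adjusted p = 0.147). The tyrosine phosphatase *Ptpn6* and the adaptor *Dok2* had log2 fold changes of -0.27 and -0.26. After the GC correction *Inpp5d* was at -0.22, *Inppl1* at -0.30, *Ptpn6* at -0.08 and *Dok2* at 0.04. The medians of the activating and the inhibitory list were -0.13 and -0.12 after the same correction, against a median of 0 over all genes tested.

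Genes of the phagocytic cup had differences in both directions. Of 36 genes 34 were tested and 0 were called in edgeR or in DESeq2, with a median log2 fold change of -0.08, which was -0.04 after the GC correction and -0.05 without WT replicate 2. The unadjusted p from edgeR was under 0.05 for 9 lower genes (26.5%) and 7 higher genes (20.6%), against 13.2% and 13% of all genes. *Marcksl1*, a membrane protein that binds actin and kinase C, had a log2 fold change of -0.55, *Limk1*, a kinase that acts on cofilin, of -0.55, and *Dock2*, an activator of Rac, of -0.40. *Scin*, which severs actin filaments, had 89.0 ± 1.41 CPM in WT and 118.7 ± 12.2 CPM in KO, a log2 fold change of 0.42 ± 0.10 (adjusted p = 0.147 from edgeR for each of these 4). The GC correction moved *Marcksl1* to -0.26 and *Limk1* to -0.27, and left *Dock2* at -0.40 and *Scin* at 0.34. DESeq2 with the correction called *Dock2* lower and *Sphk1*, named after its values were seen, higher, where it called 1.31% of all genes lower and 1.82% higher. The deposited table lists 88 genes besides the receptors under the KEGG term for Fc gamma receptor phagocytosis, many of them also in the lists above. Among them 80 were tested and 0 were called in edgeR, with a median log2 fold change of -0.15, or -0.06 after the GC correction. Of these, 25 (31.2%) were lower and 10 (12.5%) higher at an unadjusted p under 0.05, the latter near the 13% of all genes and the former against 13.2%. *Pip5k1b*, a kinase that makes the lipid PIP2, was higher in all KO libraries at 17.5, 17.8 and 20.5 CPM against 11.3, 13.1 and 11.1 CPM in WT. Its log2 fold change was 0.65 ± 0.13, with an adjusted p = 0.141 from edgeR and 0.00599 from DESeq2. It was the 1 gene of the term that DESeq2 called, where 0.521% of all genes tested were called higher, and with the GC correction DESeq2 called 2 higher and 1 lower, against 1.82% and 1.31% of all genes. *Prkcb*, a protein kinase C, was lower in all KO libraries (log2 fold change -0.47 ± 0.11, adjusted p = 0.147).

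Interferon-stimulated genes are the list to which *Fcgr1* is usually counted, though it was left out of this list. Of 27 genes 24 were tested, 21 (87.5%) had a lower fitted level in KO, against 49% of all genes, and 0 were called in edgeR. At an unadjusted p under 0.05 in edgeR, 8 (33.3%) were lower and 0 higher, against 13.2% and 13% of all genes. The median log2 fold change was -0.33, or -0.30 after the GC correction. *Irf7*, a transcription factor that amplifies the interferon response, had 16.4, 16.9 and 17.8 CPM in WT and 7.81, 8.97 and 7.74 CPM in KO. All KO values lay below all WT values, with a log2 fold change of -1.06 ± 0.12 (adjusted p = 0.0636 from edgeR). *Oas1a*, an antiviral enzyme, had 45.4, 48.1 and 51.4 CPM in WT and 31.2, 34.0 and 30.5 CPM in KO (log2 fold change -0.60, adjusted p = 0.136), and DESeq2 called *Irf7* and *Oas1a* lower, out of 16 with an adjusted p and against 0.695% of all genes tested. *Usp18* and *Stat2*, a brake and a factor of interferon signalling, had log2 fold changes of -0.73 and -0.46 (adjusted p = 0.147 each, edgeR).

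Receptors for cytokines and other signals known to raise or lower Fc gamma receptor levels were also measured. All 16 were tested and 0 were called in edgeR, with a median log2 fold change of -0.26, or -0.14 after the GC correction. Of these, 7 (43.8%) were lower and 1 (6.25%) higher at an unadjusted p under 0.05 in edgeR, where 13.2% and 13% of all genes were. *Tnfrsf1b*, a TNF receptor, had 377.3 ± 34.2 CPM in WT and 252.8 ± 30.2 CPM in KO (log2 fold change -0.58 ± 0.12, adjusted p = 0.142 from edgeR and 0.00159 from DESeq2). *Csf2ra* and *Il4ra*, chains of the GM-CSF and IL-4 receptors, had log2 fold changes of -0.66 and -0.45, and *Tgfbr1*, a TGF-beta receptor, had 0.42 (adjusted p = 0.147 each). After the GC correction these were -0.39, -0.23 and 0.17. DESeq2 called *Tnfrsf1b* lower, and with the GC correction also *Csf2ra*, where the shares of all genes called lower were 0.695% and 1.31%. In the same libraries, 6 of 10 macrophage markers were lower and 6 of 10 osteoclast markers higher at an unadjusted p under 0.05, with 0 called in either list in edgeR and 2 macrophage markers lower and 4 osteoclast markers higher past the limits in DESeq2, where 0.695% of all genes were called lower and 0.521% higher. The part of these marker shifts in the lists was not tested.

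Of 12 other Fc receptor genes 11 were in the table and 4 were tested. *Trim21*, a cytosolic antibody receptor, was at 11.8 ± 0.282 CPM in WT and 11.9 ± 1.24 CPM in KO (log2 fold change 0.01). *Fcrl1* had 6.61 ± 0.452 CPM in WT and 8.99 ± 1.60 CPM in KO (log2 fold change 0.44, or 0.28 after the GC correction; adjusted p = 0.161 from edgeR). *Fcrlb*, which lies beside the chromosome 1 cluster, was at 12, 10 and 12 counts in the WT libraries and 7, 4 and 4 in the KO libraries, and *Fcmr*, the receptor for IgM, was at 16, 18 and 19 counts in the WT libraries and 14, 8 and 16 in the KO libraries. The IgE receptor chain *Fcer1a* had 4 counts in KO replicate 2 and 0 in the other libraries, and *Pigr* was at 0 in all 6, which allows up to 3 counts or 0.150 to 0.169 CPM in a library.

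**Figure D5:**
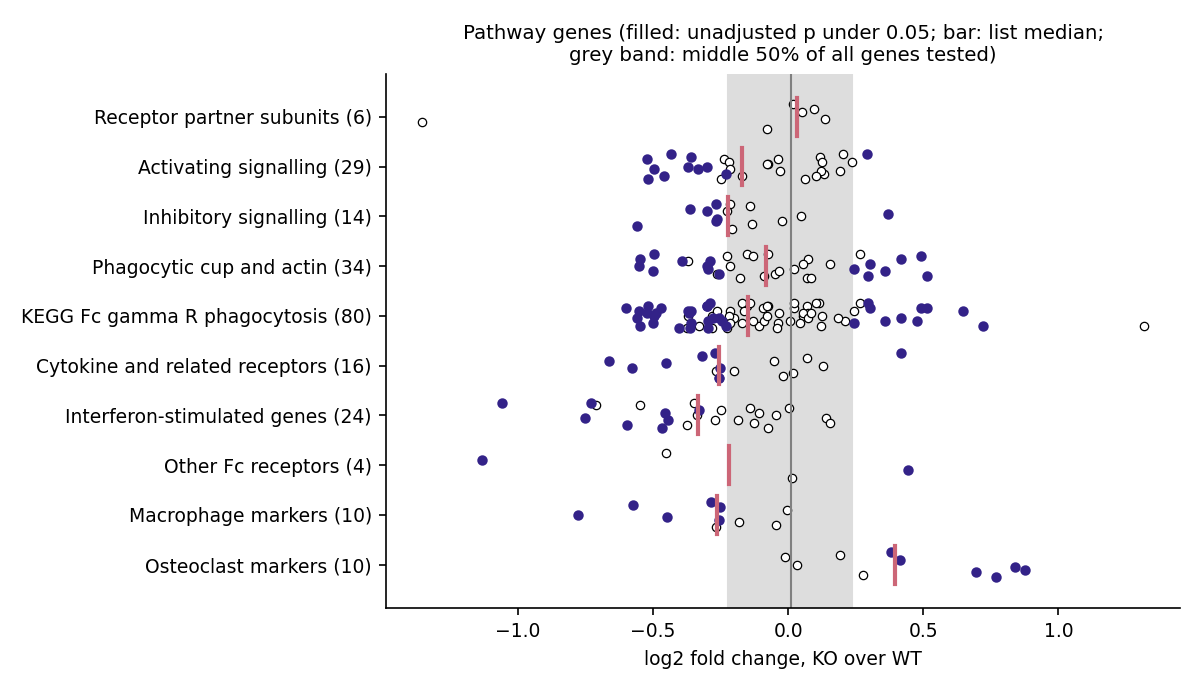
Log2 fold change of KO over WT for the tested genes of each pathway or marker list, 1 point a gene and the number of genes in brackets; filled points have an unadjusted p under 0.05 in edgeR, red bars are list medians, and the grey line and band are the median and the middle 50% of all 13428 genes. Partner chains lie near 0 apart from *Cd247*, 21 of 24 interferon-stimulated genes lie left of 0, and 9 of 10 osteoclast markers lie right of 0; genes can stand in more than 1 list.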

How the data were processed

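Stranded mRNA libraries of 3 WT and 3 KO OCP cultures were sequenced at Majorbio. The submitters' notes name fastp, HISAT2, StringTie, RSEM and the build GRCm39 without roles or versions. The authors deposited 1 table of estimated counts per gene without normalization, in which 25.1% to 26.6% of a library's detected genes were not at whole numbers. The table's columns of genotype means were not used. Counts were rounded and analysed in R 4.3.3 with edgeR 4.0.16 (filterByExpr, TMM, glmQLFit with legacy = FALSE, glmQLFTest, genotype alone), with Benjamini-Hochberg adjustment. DESeq2 1.42.0 and limma 3.58.1 gave alternatives. The GC correction entered a natural spline with 5 degrees of freedom per library as offsets, fitted on genes of mean count 50 or more. Ratios were compared by exact permutation tests (scipy 1.17.1), and coding sequences were aligned with Biopython 1.88. Fits were tested on simulated counts. All pairs of libraries differed by more than sampling noise. Intervals of fold changes come from edgeR's fit and include the spread between libraries. Floors are 3 counts and cover counting error only.

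The members and gene lists were chosen with earlier results of these data known. Named genes are the receptors, *Fcer1g*, *B2m* and *Tyrobp*, up to 4 genes of lowest p and any called gene per pathway list, the 3 most alike genes per receptor, and *lincRNA-EPS*. Some of the most alike genes are not reported here. *Fcer1a* and *Pigr* were added once their values were known. Of the table's identifiers 51884 are in GENCODE M21, which gave positions, lengths and GC content; promoters are RefSeq's.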

Additional observations from a re-analysis of the deposited data

How the results depend on the processing

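Of 90 values of the 5 genes under 18 alternatives each, 82 kept their direction and their side of the limits. *Fcgr1* ranged from a log2 fold change of -0.71 to -0.54 (adjusted p 0.00459 to 0.442) and passed the limits under DESeq2 (-0.64) and under DESeq2 with the GC correction (-0.56), the alternatives in which the number of receptor genes called was 1; it was 0 in all others, including limits of adjusted p under 0.05. *Fcgrt* turned to 0.18 with the GC correction, in edgeR, with the replicate block (0.182) and in DESeq2 (0.180). With 1 library left out, the log2 fold change ranged from -0.71 to -0.54 for *Fcgr1*, -0.16 to -0.05 for *Fcgr2b*, -0.15 to 0.03 for *Fcgr3*, -0.33 to -0.16 for *Fcgr4* and -0.17 to 0.09 for *Fcgrt*, where *Fcgr3* turned without KO replicate 1 (0.034) and *Fcgrt* without WT replicate 2 (0.094) or KO replicate 3 (0.04). The difference in the activating to inhibitory ratio ranged, with 1 library left out, from -0.0392 to 0.0324 (-0.197 with the 3 genes given equal weight) and turned with the GC correction (0.125) and without WT replicate 3 (0.0324), KO replicate 1 (0.0199) or KO replicate 2 (0.0179). The GC correction moved the median log2 fold change of partner chains to -0.14, of inhibitory signalling genes to -0.12, of cytokine receptors to -0.14 and of the KEGG term to -0.061. The median of the other Fc receptors was -0.22, 0.19 with no filter and -0.34 without KO replicate 3, that of activating signalling genes was -0.249 (without WT replicate 3) to -0.094 (without WT replicate 2), and that of cytokine receptors was -0.289 (without WT replicate 1) to -0.158 (without WT replicate 2). The causes were not tested beyond the construction of each alternative. Same-numbered WT and KO libraries did not deviate together (r = -0.21, 0.08 and 0.17), so the numbers were not taken as pairs; with the replicate block *Fcgr1* was at -0.64 (adjusted p = 0.0779, edgeR) and 0 receptor genes were called.

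With 3 libraries per genotype and 97 to 135 counts a library, *Fcgrt* was the least precise of the family. *Fcgr2b* and *Fcgr3* share exact stretches, of which the longest found in their coding sequences was 129 bases. A read that lies wholly within such a stretch fits both genes.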
